A study of Mus musculus with 2 samples.

Results

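Thrombospondin 1, the product of Thbs1, was examined together with 8 genes known from YAP and TGF-beta biology: Ctgf, Cyr61, Ankrd1, Amotl2, Tgfb1, Tgfb2, Axl and Timp1. The 9 genes were picked by symbol, with earlier results of these arrays known, to ask whether genes switched on by the same wound signals follow Thbs1. All 9 had 1 row each among the 15644 named genes: 7 under the symbol given here, and 2, Ctgf and Cyr61, under their current symbols Ccn2 and Ccn1. Of the 9 genes, 8 reached the floor used here, a log2 intensity of 5 (an intensity of 32), in at least 1 array, and all 8 reached it in both. Axl stayed under it in both arrays. Tgfb1 and Tgfb2 encode ligands, so they stand upstream of the TGF-beta response as well as among the genes that such signals can raise.

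The cells were primary hepatocytes of 1 male C57BL/6 mouse aged 9 weeks, liver parenchymal cells kept in culture for 24 h before dosing. The PCN group received 10 µmol/l pregnenolone 16α-carbonitrile, a steroid ligand of the rodent pregnane X receptor, for 12 h. The DMSO group received the solvent dimethyl sulfoxide for the same time. RNA from 3 samples was pooled within each group and hybridised to 1 array, so every value below is that of a single array. No test or standard error could be made, and "higher" and "lower" describe these 2 arrays. The pooling hides the spread between cultures, and with cells of 1 animal nothing can be said of other animals.

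Thrombospondin 1 is a secreted matricellular glycoprotein that is known to release active TGF-beta from its latent complex and to bind cell surface receptors such as CD47 and CD36. YAP and TAZ are transcriptional coactivators that the Hippo kinases keep out of the nucleus. When cells spread on a stiff surface or lose contact with neighbours, YAP and TAZ enter it and act through TEAD factors. Ctgf, Cyr61, Ankrd1 and Amotl2 are widely used readouts of this activity. TGF-beta acts through receptor kinases and SMAD proteins, and hepatocytes in culture are known to meet both kinds of signal as they flatten and lose polarity.

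The promoters are shown for 4 genes, because YAP is known to act through TEAD factors, which bind DNA and can do so near a start site. Timp1 is shown for its difference and not as a YAP readout. Sites further from the start were not searched. RefSeq promoter sequences of build GRCm38.p6 matched 7 of the 9 genes, all but Thbs1 and Ctgf. Ankrd1 and Cyr61 were higher with PCN, Amotl2 was lower and Timp1 had the largest difference after Thbs1. Each line below gives the 250 bases before the annotated start, from 5′ to 3′, with matches to the searched motifs in capitals. The windows lie at chr19:36119845-36120094, minus strand, for Ankrd1, at chr3:145649986-145650235, minus strand, for Cyr61, at chr9:102717554-102717803, plus strand, for Amotl2, and at chrX:20869916-20870165, plus strand, for Timp1.
Ankrd1: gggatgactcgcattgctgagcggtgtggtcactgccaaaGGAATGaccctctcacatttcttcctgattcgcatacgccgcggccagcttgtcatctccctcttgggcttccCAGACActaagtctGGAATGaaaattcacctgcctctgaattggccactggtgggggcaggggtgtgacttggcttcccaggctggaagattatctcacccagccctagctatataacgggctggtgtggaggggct
Cyr61: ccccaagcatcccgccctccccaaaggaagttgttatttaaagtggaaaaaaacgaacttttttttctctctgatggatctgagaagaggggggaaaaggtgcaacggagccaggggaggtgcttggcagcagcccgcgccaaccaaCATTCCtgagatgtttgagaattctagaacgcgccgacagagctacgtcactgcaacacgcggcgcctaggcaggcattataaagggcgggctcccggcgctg
Amotl2: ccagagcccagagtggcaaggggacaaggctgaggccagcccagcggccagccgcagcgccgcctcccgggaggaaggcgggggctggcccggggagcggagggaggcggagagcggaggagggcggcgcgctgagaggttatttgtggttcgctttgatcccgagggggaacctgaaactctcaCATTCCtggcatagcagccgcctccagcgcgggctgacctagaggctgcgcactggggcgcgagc
Timp1: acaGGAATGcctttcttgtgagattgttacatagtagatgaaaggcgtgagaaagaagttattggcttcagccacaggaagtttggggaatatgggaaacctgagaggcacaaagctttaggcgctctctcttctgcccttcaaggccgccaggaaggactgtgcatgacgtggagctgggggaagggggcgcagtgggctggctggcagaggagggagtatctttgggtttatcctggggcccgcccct

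The searched motifs were the TEAD core GGAATG, the AP-1 site TGANTCA, the SMAD-related CAGA core CAGACA and the CArG box of SRF, each on both strands. The TEAD core was found in 5 of the 7 promoters, those of Ankrd1, Cyr61, Amotl2, Timp1 and Axl, and 12.6% of all 32851 RefSeq promoters hold it in a window of the same length. Ankrd1 had 2 copies, starting 210 and 123 bases before the start site, and each of the other 4 had 1. In Cyr61 it began 103 bases before the start site, in Amotl2 65, in Timp1 247 and in Axl 233. CAGACA was found in 2 promoters, those of Ankrd1 and Tgfb2, against 17.1% of all promoters. The AP-1 site, which 6.75% of all promoters hold, and the CArG box, which 1.47% hold, were in none of the 7 windows. No searched motif overlapped another in the printed windows. The TEAD core was thus present in genes that were higher with PCN and in Amotl2, which was lower. A match is a run of letters and not a measured binding site. The genes were chosen as known from YAP and TGF-beta biology, so setting their promoters beside all promoters tests nothing.

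Thbs1 stood at an intensity of 633 in the PCN array and 130 in the DMSO array. The difference was 2.29 on the log2 scale, PCN minus DMSO, or 4.88-fold. It ranked 2 of the 6449 measured genes, counted from the highest difference. When the measured genes were split into 5 level groups of equal size by mean intensity, the 5th to 95th percentile of the difference in its group ran from -0.35 to 0.34. Over all measured genes 0.0930% were at least 2-fold higher with PCN and 0.233% at least 2-fold lower. Since Thbs1 was chosen for this value, its rank is a description and nothing more.

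The other measured genes did not follow Thbs1 in size. With PCN, 4 of the 7 were higher and 3 lower, where 57.6% of all measured genes were higher and 42.4% lower. None of the 7 was 1.5-fold apart, a distance that 1.94% of measured genes reached (0.636% higher and 1.30% lower). Their log2 differences ran from -0.24 to 0.56 around a median of 0.10, beside a median of 0.03 over all measured genes. Past 1.2-fold were 2 of the 7, Timp1 and Ankrd1, both higher, where 9.06% of measured genes were at least 1.2-fold higher and 8.95% at least 1.2-fold lower. The bacterial and phage control probe sets above the floor in each array, 38 in all, differed by -0.03 ± 0.10 on the log2 scale (mean ± SD over probe sets), between -0.33 and 0.16. These controls carry the spread of labelling and hybridisation, not that of cultures.

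**Figure D1:**
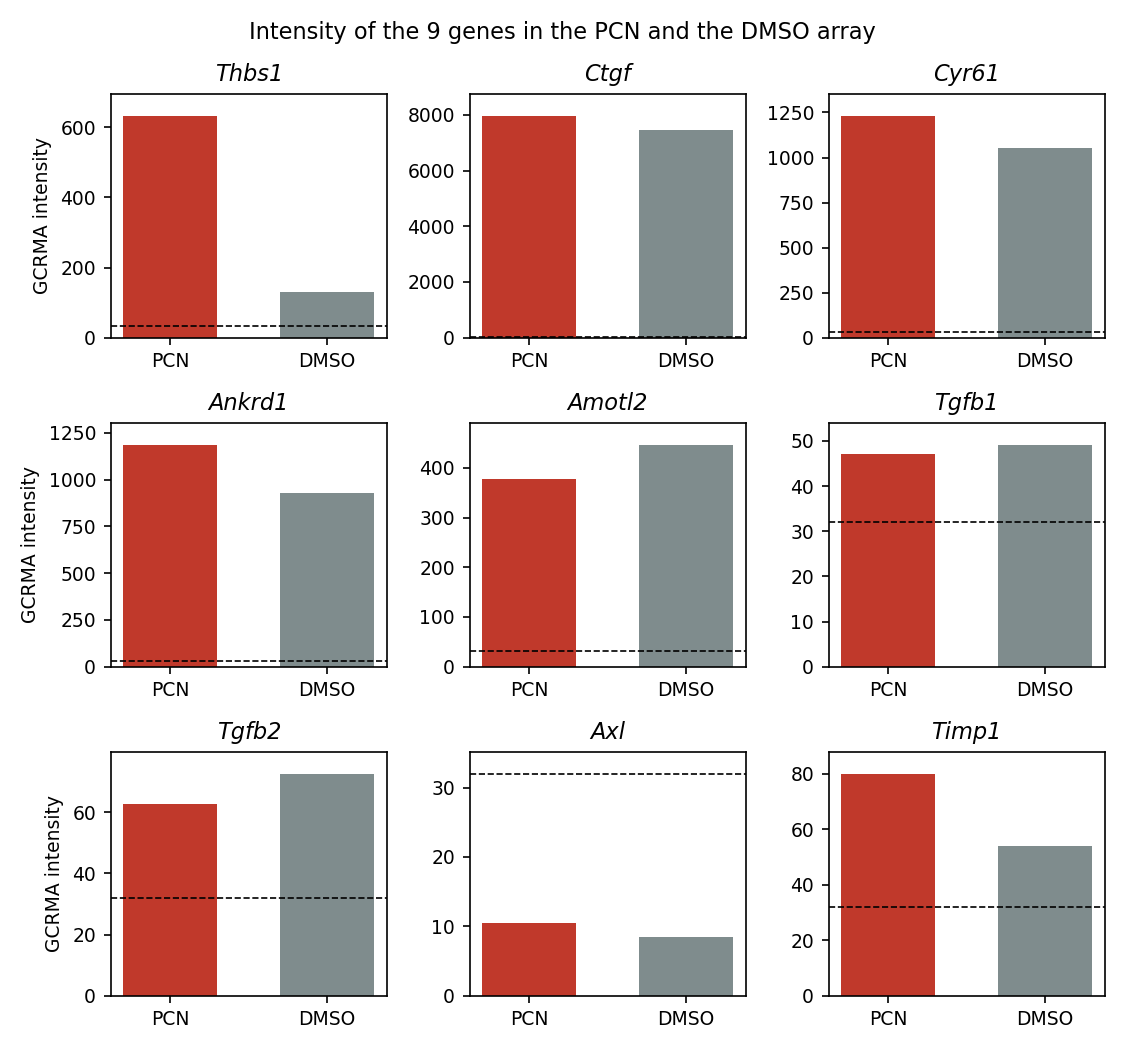
Deposited GCRMA intensity (y axis, linear, a scale of its own for each gene) of the 9 genes in the PCN array (red, left bar) and the DMSO array (grey, right bar), with the floor of 32 as a dashed line. Each bar is 1 array and has no error bar; Thbs1 stands at 633 with PCN and 130 with DMSO, while both bars of Axl lie under the floor.

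Ankrd1, Cyr61 and Ctgf, 3 of the genes most often read as a sign of YAP activity, were all higher with PCN by small amounts. Ankrd1 encodes a repeat protein found in the nucleus and the muscle sarcomere. Its intensity was 1187 with PCN and 930 with DMSO, a log2 difference of 0.35 (1.28-fold). This lay above the 95th percentile of its level group, 0.23, and ranked 265. Cyr61 encodes CCN1, a secreted matrix-associated protein that binds integrins, and stood at 1232 with PCN and 1051 with DMSO. Its log2 difference of 0.23 (1.17-fold) was at the edge of that same range, which it shared with Ankrd1 and Ctgf, and ranked 795. Ctgf, whose product CCN2 is a related matrix-associated protein that both YAP and TGF-beta are known to raise, had 7974 with PCN and 7455 with DMSO. The log2 difference was 0.10 (1.07-fold), inside the range of the controls, at rank 2219. Array signal can be compressed at such a high intensity, and this was not tested. In log2 terms the differences of these 3 genes came to 15.4%, 10.0% and 4.24% of that of Thbs1, in the order Ankrd1, Cyr61, Ctgf.

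Amotl2, which encodes an angiomotin family protein that binds YAP and holds it in the cytoplasm, and which YAP itself is known to raise, went the other way. It stood at 378 in the PCN array and 447 in the DMSO array, a log2 difference of -0.24 (1.18-fold lower). That is inside the 5th to 95th percentile of its level group, -0.32 to 0.29, and inside the range of the controls. In sign the 4 YAP readouts did not share 1 direction in these arrays. The differences of Amotl2 and Ctgf lay inside the range of the controls, and those of Cyr61 and Ankrd1 above it. That range does not carry the spread of cultures. With 1 array per group the direction of all 4 is therefore unsettled.

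The ligand genes were slightly lower with PCN. Tgfb1, the main TGF-beta isoform, had an intensity of 47.0 with PCN and 49.2 with DMSO, a log2 difference of -0.06. Tgfb2, a second isoform and itself often listed among YAP targets, had 62.7 with PCN and 72.7 with DMSO, a difference of -0.21 (1.16-fold lower). Both differences lay inside the range of the controls, and both genes were near the floor, in the 2 level groups with the widest spread among genes. In the group of Tgfb1 the 5th to 95th percentile ran from -0.41 to 0.37, and in that of Tgfb2 from -0.43 to 0.41.

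Timp1, a secreted inhibitor of matrix metalloproteinases that wounding and cytokines are known to raise, had the largest difference after Thbs1. It stood at 80.0 in the PCN array and 54.1 in the DMSO array, a log2 difference of 0.56 (1.48-fold), just under 1.5-fold. It ranked 45, above the 95th percentile of 0.41 of its level group, and its log2 difference was 24.7% of that of Thbs1. Because Timp1 is dim, this value depended on how low signal was treated: it was 0.32 with a floor of 6 and 0.38 with 32 added to each intensity. Axl, a receptor tyrosine kinase of the TAM group and a common YAP readout, had intensities of 10.5 with PCN and 8.43 with DMSO, both under the floor, so no difference is given.

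**Figure D2:**
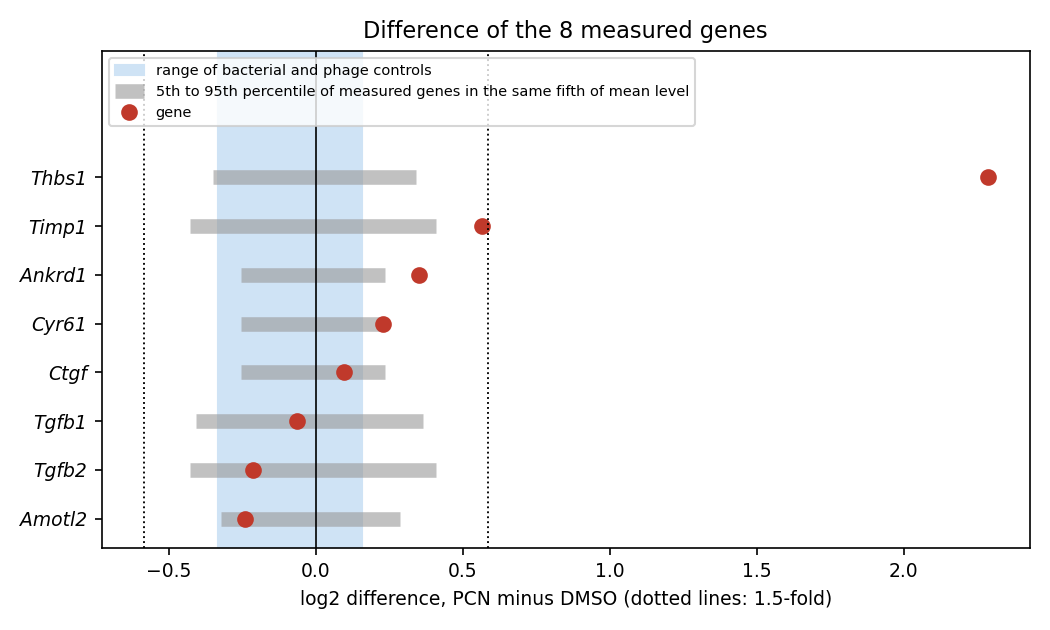
Log2 difference, PCN minus DMSO (x axis), of the 8 measured genes (red points, 1 value each), with the 5th to 95th percentile of measured genes in the same level group (grey bars) and the range of the control probe sets (blue band). Thbs1 lies at 2.29 and Timp1 and Ankrd1 lie just past their grey bars, while the other 5 lie within theirs.

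**Figure D3:**
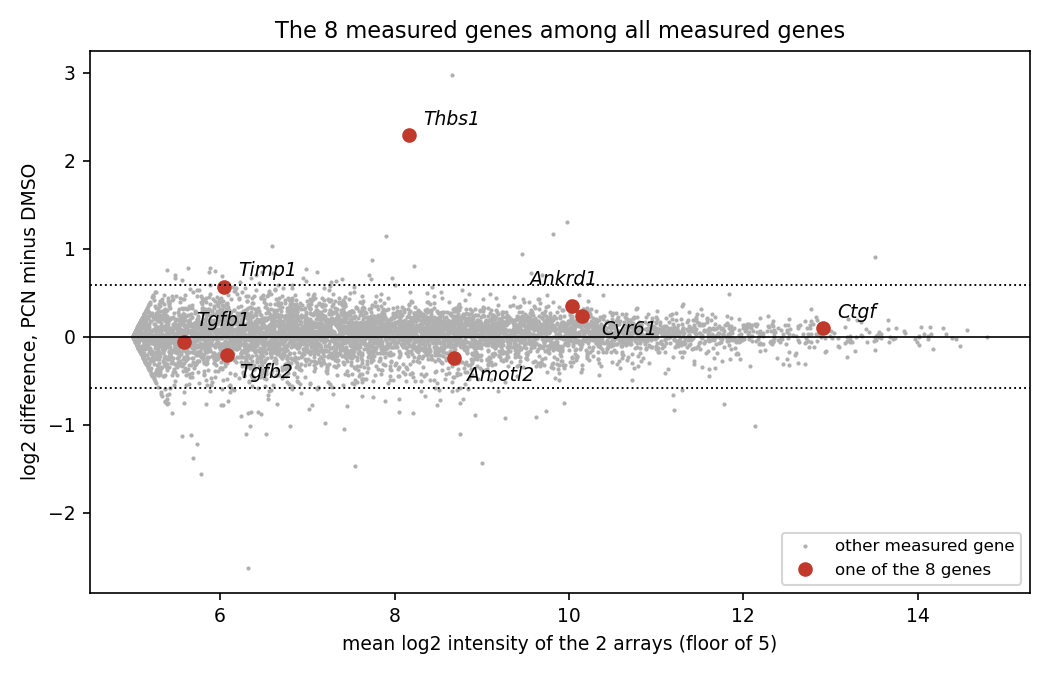
Log2 difference, PCN minus DMSO (y axis), against the mean log2 intensity of both arrays (x axis) for all 6449 measured genes (grey) and the 8 genes described here (red, named). Only Thbs1 of the 8 lies outside the dotted 1.5-fold lines, and 1 grey point is higher than it.

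Few genes stood near Thbs1 in the size of the difference. The 3 nearest among genes measured in both arrays, by the distance between log2 differences, over 2 arrays, were Cyp3a25, Gstm3 and 4931406C07Rik. Cyp3a25, a drug-metabolising P450 enzyme, stood 0.68 log2 units away, with intensities of 1134 with PCN and 145 with DMSO. Gstm3, a glutathione S-transferase, was 0.98 away, at 1580 with PCN and 641 with DMSO. 4931406C07Rik was 1.12 away, with an intensity of 1349 with PCN and 600 with DMSO.

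The wider pathways were followed through 9 lists, which together held 132 genes with a row, 72 of them measured. With the cell marker lists read further below also counted, 12 of the 132 were in several lists. Of the 72 genes, 49 were higher with PCN and 23 lower, beside 57.6% and 42.4% of all measured genes. Their median log2 difference was 0.08. The counts of each list below are to be read beside these shares of all measured genes. At 1.2-fold, 13 genes (18.1%) were higher and 4 (5.56%) lower, beside 9.06% and 8.95% of all measured genes. At 1.5-fold 1 gene (1.39%) was higher, beside 0.636% of all measured genes, and none lower, beside 1.30%. These counts are minimums, since 8 of the 72 genes were under the floor in 1 array and enter as lower bounds. With values as deposited, 18 were higher and 4 lower by 1.2-fold, and the share of all measured genes was not computed in this way. By 1.5-fold 3 were higher and none lower, where 53 of all 6449 measured genes were higher as deposited and 102 lower. None of the 72 was 2-fold apart as deposited, the size that Thbs1 passed.

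Other YAP and TAZ target genes gave the highest list median, 0.23 over 8 measured genes of 17 with a row, with 6 higher and 2 lower. The 1 gene past 1.5-fold was Gadd45a, whose product slows the cell cycle and which DNA damage and other stresses also raise, at 289 with PCN and 158 with DMSO (1.83-fold). Igfbp3, a carrier protein of insulin-like growth factors, had 932 with PCN and 713 with DMSO (1.31-fold). Birc5, an inhibitor of apoptosis expressed in dividing cells, had 162 with PCN and 127 with DMSO (1.28-fold). Myof, a membrane repair protein, had 315 with PCN and 262 with DMSO, a log2 difference of 0.27. Those 4 were past 1.2-fold, all higher. Of all measured genes 57.6% were higher and 9.06% at least 1.2-fold higher. Dock5, an activator of Rac, was a lower bound, at 36.0 with PCN and 29.2 with DMSO (at least 1.12-fold, 1.23-fold as deposited). The other 9 genes with a row, among them the Hippo kinase gene Lats2 at 28.5 with PCN and 26.6 with DMSO, did not reach the floor in either array.

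Genes of the Hippo pathway itself were mostly dim or close in both arrays. Of 21 with a row, 10 were measured, 7 higher and 3 lower, with a median of 0.09. None of the 8 above the floor in both arrays was past 1.2-fold. The other 2 are lower bounds: Lats1, a Hippo kinase gene, had 36.4 with PCN and 21.8 with DMSO (at least 1.14-fold higher, 1.67-fold as deposited), and Mob1b, a kinase coactivator gene, 34.3 with PCN and 28.1 with DMSO (at least 1.07-fold, 1.22-fold as deposited). Yap1, the gene of YAP, had 514 with PCN and 484 with DMSO, a log2 difference of 0.09. Wwtr1, the gene of TAZ, had 286 with PCN and 248 with DMSO, a difference of 0.21. The 4 TEAD genes were under the floor in both arrays, with Tead1 at 9.59 with PCN and 9.99 with DMSO; the TEAD genes were named after their values were seen.

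Of the TGF-beta ligands, activators, receptors and SMADs, 14 of 23 with a row were measured, 12 higher and 2 lower, with a median of 0.07. Smurf1, a ubiquitin ligase that removes TGF-beta receptors and SMADs, had 81.2 with PCN and 60.2 with DMSO (1.35-fold). Tgfbr2, the type II receptor gene, had 193 with PCN and 153 with DMSO (1.27-fold). These 2 were past 1.2-fold among the genes above the floor in both arrays. Of all measured genes 57.6% were higher and 9.06% at least 1.2-fold higher. Itgb6, an integrin subunit that activates latent TGF-beta, had 32.7 with PCN and 16.8 with DMSO, which gives a bound of at least 1.02-fold and 1.95-fold as deposited. Eng, a TGF-beta coreceptor gene, had 37.1 with PCN and 30.7 with DMSO, at least 1.16-fold higher and 1.21-fold as deposited. Tgfbr1, the type I receptor gene, had 37.3 with PCN and 37.0 with DMSO, and Smad3, a signal-carrying SMAD, 44.7 with PCN and 44.9 with DMSO. Smad7, an inhibitory SMAD that TGF-beta itself raises, had 85.7 with PCN and 82.2 with DMSO, a log2 difference of 0.06.

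The TGF-beta target genes were divided, with 15 of 24 measured, 9 higher and 6 lower, around a median of 0.06. Vim, an intermediate filament gene of mesenchymal and cultured epithelial cells, had 4333 with PCN and 3101 with DMSO (1.40-fold), the highest of the list. On the other side were Snai2, a repressor of epithelial genes, at 32.5 with PCN and 43.9 with DMSO (1.35-fold lower), and Tagln, an actin-binding protein gene, at 30.3 with PCN and 40.1 with DMSO. Tagln was under the floor with PCN and is therefore at least 1.25-fold lower. The matrix genes Fn1, at 13290 with PCN and 13529 with DMSO, and Col4a1, at 789 with PCN and 716 with DMSO, were named after their values were seen, with log2 differences of -0.03 and 0.14.

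**Figure D4:**
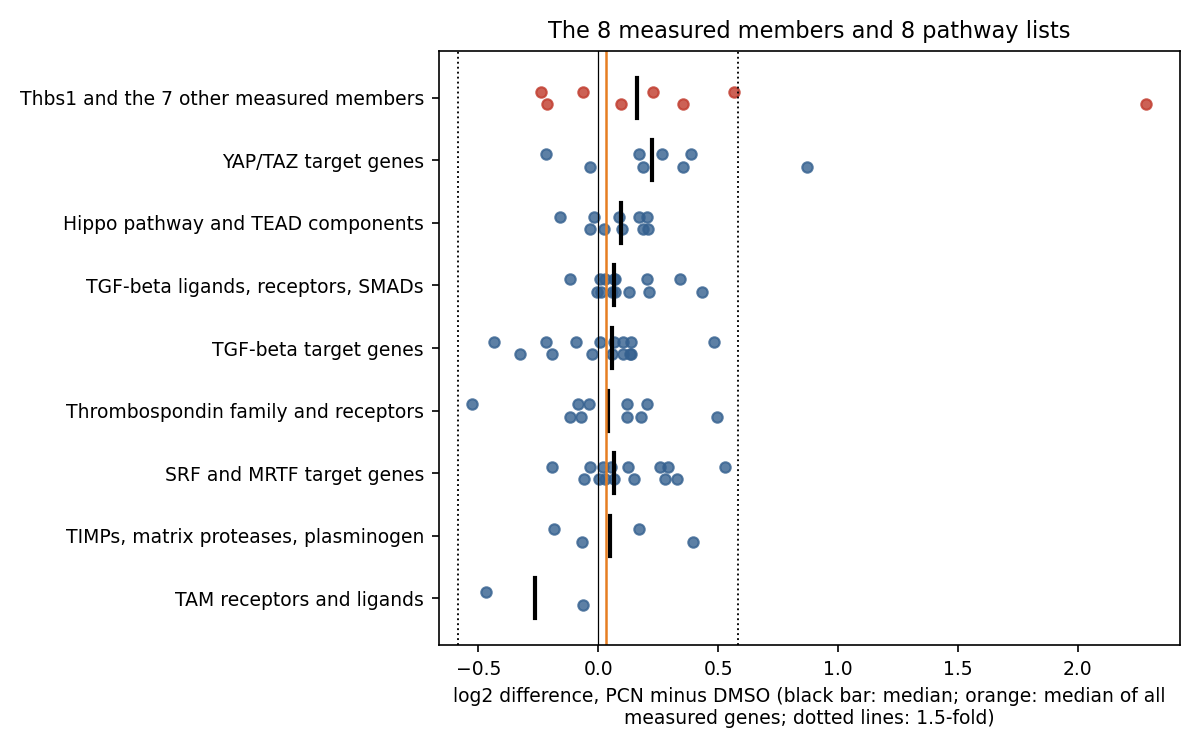
Log2 difference, PCN minus DMSO (x axis), of the 8 measured genes described above (red, top) and of the measured genes in 8 pathway lists (blue), 1 point per gene, with list medians (black bars), the median of all measured genes, 0.03 (orange line), and 1.5-fold (dotted lines). Thbs1 at 2.29 and Gadd45a at 0.87 are the 2 points past 1.5-fold; a gene under the floor in 1 array is drawn at its lower bound, and a gene in several lists is drawn in each.

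No measured receptor of thrombospondin 1 had a difference as large as that of Thbs1, and for its relatives no difference could be given. Thbs2, Thbs3, Thbs4 and Comp, the other family members, were all under the floor in both arrays, with Thbs2 at 3.79 with PCN and 4.06 with DMSO. In the list of relatives and receptors 10 of 15 genes were measured, 5 higher and 5 lower, with a median of 0.04. Itga3, an integrin subunit that binds laminin and can bind thrombospondin 1, had 395 with PCN and 280 with DMSO (1.41-fold). Cd36, a fatty acid transporter and thrombospondin receptor, had 45.1 with PCN and 64.9 with DMSO (1.44-fold lower). Cd47, a receptor for the carboxyl-terminal end of thrombospondin 1, had 888 with PCN and 932 with DMSO, a log2 difference of -0.07. The relatives of Ctgf and Cyr61 in the CCN family with a row, 3 in all, were under the floor in both arrays, with 8.83 the highest intensity among them.

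Targets of SRF and its MRTF coactivators respond to serum and to actin assembly, as wounding also brings about. Their list also held the genes of SRF and of the MRTFs themselves. Of its 19 genes with a row 15 were measured, 12 higher and 3 lower, with a median of 0.06. Past 1.2-fold were 4 of the 15, all higher, with Mkl1, a coactivator gene and not a target, among them. Of all measured genes 57.6% were higher and 9.06% at least 1.2-fold higher. Fos, an immediate early transcription factor gene, had 182 with PCN and 126 with DMSO (1.44-fold). Fhl2, a LIM domain coactivator, had 147 with PCN and 117 with DMSO (1.26-fold). Mkl1, the gene of MRTF-A, had 43.4 with PCN and 35.5 with DMSO (1.22-fold), and Cnn2, an actin-binding calponin, 841 with PCN and 693 with DMSO (1.21-fold). Among TIMPs, matrix proteases and the plasminogen system, 4 of 15 genes were measured, 2 higher and 2 lower, around a median of 0.05. Plat, the tissue plasminogen activator gene, had 382 with PCN and 291 with DMSO (1.31-fold). The other TIMP genes, named after their values were seen, were under the floor, with Timp2 at 6.14 with PCN and 6.13 with DMSO. In the TAM group of Axl, Gas6, the ligand gene, had 779 with PCN and 1079 with DMSO (1.38-fold lower), and the receptor genes Tyro3 and Mertk, named after their values were seen, were under the floor in both arrays.

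Thbs1, Timp1 and Ctgf are also expressed by other liver cells and, for Thbs1, by platelets, so marker lists were read beside them. All 4 platelet markers with a row were under the floor in both arrays, with a summed intensity of 37.5 with PCN and 33.9 with DMSO. Stellate cell and fibroblast markers summed to 411 with PCN and 458 with DMSO. In that list 2 of 11 were measured, Dcn and Acta2, both lower. Dcn made up most of the sums, at 313 with PCN and 351 with DMSO. Acta2 was under the floor with PCN, so its difference is a lower bound. Col1a1, Col1a2, Pdgfrb, Lrat and Des were among those under the floor in both arrays. Endothelial markers passed the floor in 2 of 7 cases, Lyve1 (under it with DMSO, so a lower bound) and Stab2, in opposite directions. That list summed to 146 with PCN and 134 with DMSO, with Pecam1, Cdh5 and Kdr under the floor. Kupffer cell and leukocyte markers summed to 1685 with PCN and 1744 with DMSO, nearly all of it Cd68, the 1 measured gene of 7. Mesothelial markers were all under the floor, and of 4 bile duct markers 2 were measured, Krt19 higher and Sox9 lower. The hepatocyte markers summed to 88821 with PCN and 89621 with DMSO. Of 10, 9 were measured, 2 higher and 7 lower; Cyp2e1 was 1.24-fold higher, Asgr1 1.36-fold lower, and Tat was under the floor. In a pooled culture, fewer cells of a type and less RNA per cell cannot be told apart.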

How the data were processed

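Each group was read on 1 one-colour Affymetrix array. Per the labels' protocols, the labelled cRNA was made from 5 µg of pooled RNA. The authors deposited GCRMA intensities (version 2.2.0 per the submitters' processing notes), which ran from 1.13 to 28482 and so were on a linear scale. GCRMA brings arrays to a common distribution, which hides any change in a cell's total RNA. The probe set definition is not given in the sources used here. Of 16395 probe sets, 64 were controls and 687 had no gene name and stayed out. Symbols came from the platform annotation and, for older symbols, from RefSeq synonyms (assembly GRCm38.p6).

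From the deposited intensities, log2 values and differences PCN minus DMSO were computed (pandas 2.3.3 and numpy 2.4.6 under Python 3.11.15). A value under the floor of 5 in 1 array was raised to it, which makes the fold a lower bound. Genes under it in both arrays counted as not measured; no background level was measured for it. With 1 array per group no test was possible, differences are described by size (1.2-fold, 1.5-fold and 2-fold), and having 2 arrays limits the precision. The procedure was tested on simulated data with large changes, set only in genes well above the floor. That test does not speak to small differences or to dim genes. The members and lists were chosen with earlier results of these data known. Named genes are the members, up to 6 genes per list past 1.2-fold, the 3 genes nearest Thbs1 in difference, and 10 pathway genes fixed by name. All others, such as marker genes, thrombospondin relatives and genes given as lower bounds, were named after their values were seen. Alternatives were other floors, no floor, an added constant of 32, quantile normalization, median centring, a loess trend taken out (fraction 0.3, statsmodels 0.14.6) and other fold sizes.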

Additional observations from a re-analysis of the deposited data

How the results depend on the processing

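Under the alternatives, all planned, no member and no list median changed sign. Of 55 member values, 52 lay within the SD of the control probe sets, 0.10, of the main one; the 3 that did not were as follows. Thbs1 was 2.04 with 32 added to each intensity. Timp1 was 0.32 with a floor of 6 and 0.38 with 32 added. Both steps shrink dim signal by construction. Many of the 52 values could not have moved that far, so the count says little about stability. A lower floor and no floor left every measured member unchanged, since all lay above the main floor in both arrays. Thbs1, Ctgf, Cyr61, Ankrd1 and Amotl2 also lay above the floor of 6. Median centring shifts every gene by 0.03, which is less than 0.10. All 56 list medians lay within 0.10 of the main one, a distance that median centring could not pass for them either. Tgfb1 was not measured with a floor of 6. The count of genes at least 1.5-fold apart was 125, and it was 62 with 32 added, 1161 at 1.2-fold and 21 at 2-fold. No replicate could be left out, and with 1 array per group a difference between the arrays themselves cannot be told apart from treatment. No paired analysis was possible because there was a single array per treatment. Signal near the floor limits Tgfb1, Tgfb2, Timp1 and Axl.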
